A study of Homo sapiens with 6 samples.

Results

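The genes described here are 32 enzymes, regulators and transporters of lipid synthesis, taken by gene symbol from the 23754 features of the deposited table. They comprise 7 enzymes from acetyl-CoA to farnesyl diphosphate, 10 enzymes from squalene to cholesterol, 5 regulators of the sterol regulatory element-binding proteins (SREBPs) with 1 sterol carrier, 7 enzymes of fatty acid synthesis, and ABCA1 and ABCG1, sterol exporters under the liver X receptors (LXRs). RNA came from IMR-90, a line of human fetal lung fibroblasts, which had been transduced with the lentiviral vector Tet-pLKO-puro carrying a hairpin against ZNF469 (Sh-ZNF469) under doxycycline (DOX) control and kept under puromycin. The 3 Control libraries came from cells grown without DOX, and the 3 Sh-ZNF469 libraries from cells given 2 µg/mL DOX for 4 days. Control cells are wild-type according to their labels, but the methods of the study give them as the same line, with the hairpin named sh-2, left uninduced. All 3 libraries of the induced group carry both DOX and a single hairpin, so the effects of the drug, of hairpin expression and of reduced ZNF469 cannot be told apart here. The submitters call the libraries technical replicates, and p-values then measure only the spread between these libraries.

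Cholesterol is built from acetyl-CoA by way of mevalonate, isoprenoid diphosphates, squalene and lanosterol. When sterols in the endoplasmic reticulum are low, SCAP escorts the SREBP precursors to the Golgi, where proteases release the part that enters the nucleus, and when sterols are plentiful the INSIG proteins hold SCAP back. SREBP-2, from SREBF2, acts mainly on the sterol enzymes, and SREBP-1, from SREBF1, mainly on the fatty acid enzymes. LXRs, which bind oxysterols, raise sterol export through ABCA1 and ABCG1 and also act on SREBF1 and SCD. Dividing fibroblasts draw on both syntheses for membranes.

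Counts summed to between 34057675 and 36120260 per library, and levels are given as CPM, the count divided by the TMM-adjusted library size. ZNF469 itself was at 118, 112 and 126 CPM in Control replicates 1, 2 and 3 and at 80.4, 80.4 and 79.6 CPM in Sh-ZNF469 replicates 1, 2 and 3, so 67.5% of the Control level remained (log2 fold change −0.57, standard error (SE) 0.0477, adjusted p = 3.31e-05, edgeR's quasi-likelihood test). All 9 fibroblast markers were present, and their summed level was 36754 to 37883 CPM in Control and 27379 to 28282 CPM in Sh-ZNF469 libraries, where COL1A1, COL1A2, COL3A1, DCN and LUM fell and PDGFRA, PDGFRB, THY1 and VIM did not pass the test. The part of this shift in the values below was not tested. Markers of cells with a large lipid output were near 0. All 3 hepatocyte markers had 0 counts, and the 4 adipocyte markers summed to at most 0.487 CPM in Control and 0.828 CPM in Sh-ZNF469 libraries, with ADIPOQ and LEP at 0. Summed levels in Control and Sh-ZNF469 libraries were at most 0.472 and 0.392 CPM for 5 epithelial markers, 19.8 to 24.1 and 20.5 to 23.9 CPM for 4 endothelial markers, nearly all from TEK with PECAM1 and CDH5 at 0, and 60.5 to 66.7 and 59.0 to 65.1 CPM for 4 immune markers, nearly all from CD68 with CD3E at 0. On the leading principal component, with 23.9% of the variance, Sh-ZNF469 replicate 2 scored 32.8 against −12.6 to 0.524 for the other libraries.

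Stretches upstream of the annotated starts were searched for letters that SREBPs and their usual partners bind. RefSeq windows on GRCh38.p14 were found for 27 of the 32 genes, all but SQLE, FDFT1, ACAT2, FASN and ABCG1. Where RefSeq gives a gene several starts, the first window listed was used. Its 250 bases before the start are printed for the 4 genes with the smallest p-values and for SREBF2, the only one of the 27 with a match to the sterol regulatory element searched. They lie at chr10:100346983-100347232 on the plus strand for SCD, chr9:104928156-104928405 on the minus strand for ABCA1, chr4:165327419-165327668 on the plus strand for MSMO1, chr17:17836987-17837236 on the minus strand for SREBF1 and chr22:41832855-41833104 on the plus strand for SREBF2. Each is read 5′ to 3′ on the strand of its gene, ending at the base before the start. Capitals mark matches, on either strand, to the sterol regulatory element (SRE, TCACNCCAC), the E-box (CACGTG) or the CCAAT box (CCAAT).
SCD: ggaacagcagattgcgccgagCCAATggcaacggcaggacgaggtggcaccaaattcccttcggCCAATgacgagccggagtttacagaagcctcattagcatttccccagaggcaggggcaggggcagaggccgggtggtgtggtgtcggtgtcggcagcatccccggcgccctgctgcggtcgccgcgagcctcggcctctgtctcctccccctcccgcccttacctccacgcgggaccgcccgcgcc
ABCA1: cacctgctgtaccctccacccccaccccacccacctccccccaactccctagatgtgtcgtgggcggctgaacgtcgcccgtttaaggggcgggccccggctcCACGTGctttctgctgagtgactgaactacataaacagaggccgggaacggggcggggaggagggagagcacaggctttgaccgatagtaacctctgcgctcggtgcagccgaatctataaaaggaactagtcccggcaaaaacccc
MSMO1: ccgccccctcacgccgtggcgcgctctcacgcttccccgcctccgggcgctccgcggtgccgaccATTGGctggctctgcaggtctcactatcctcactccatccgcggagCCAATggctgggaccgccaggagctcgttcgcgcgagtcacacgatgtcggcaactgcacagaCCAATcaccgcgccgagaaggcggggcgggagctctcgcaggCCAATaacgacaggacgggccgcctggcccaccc
SREBF1: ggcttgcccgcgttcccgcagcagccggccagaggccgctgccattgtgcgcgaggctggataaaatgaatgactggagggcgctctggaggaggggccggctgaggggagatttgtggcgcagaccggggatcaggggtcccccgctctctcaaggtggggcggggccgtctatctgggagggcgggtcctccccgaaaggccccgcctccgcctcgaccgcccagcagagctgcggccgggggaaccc
SREBF2: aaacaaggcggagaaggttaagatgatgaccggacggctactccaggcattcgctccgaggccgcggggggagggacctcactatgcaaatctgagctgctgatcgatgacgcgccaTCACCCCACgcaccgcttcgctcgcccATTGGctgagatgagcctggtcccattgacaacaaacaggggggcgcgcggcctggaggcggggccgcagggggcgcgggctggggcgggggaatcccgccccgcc

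Of these 5 stretches, SREBF2 held the SRE match, at position −133 from its start on the strand of the gene, and a CCAAT box at −106 on the opposite strand. The SCD stretch held 2 CCAAT boxes, at −229 and −186. MSMO1 held 4 CCAAT boxes, the one farthest from the start on the opposite strand. ABCA1 held an E-box at −147, and SREBF1 held no match to these 3 motifs. The only window of SREBF1 lies at the upstream end of the gene, and any start inside the gene was not searched. GC boxes (GGGCGG, the Sp1 site, left in lower case) were also searched on both strands, and none of the 4 motifs contains another. Over the 27 genes, 16 had a CCAAT box, against 33.0% of the 27305 first windows of all genes, and 25 had a GC box, against 42.3%. An E-box was in 4 of the 27, against 6.49% of all windows, and the SRE in 1 of the 27, against 0.875%. The windows of all genes were not limited to genes tested here. These shares therefore do not compare the 27 genes with other expressed genes. Among the mevalonate and sterol enzymes with a window, the first windows of PMVK, IDI1 and CYP51A1 had no CCAAT box, the motif that NF-Y binds, while the 2 other windows of IDI1, nearer the body of the gene, held 3 and 2. Such matches describe letters in these stretches and nothing about binding.

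**Figure D1:**
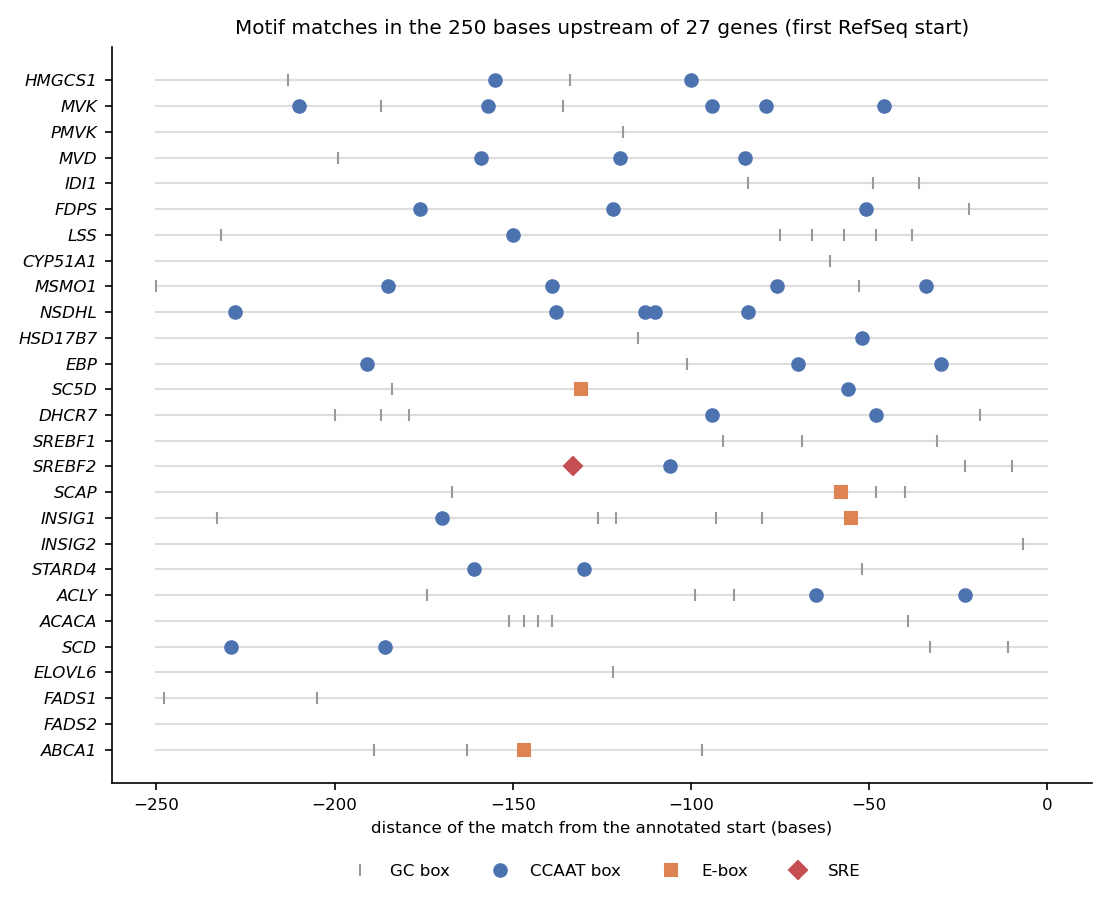
Positions of motif matches, on either strand, in the 250 bases before the first listed RefSeq start of 27 genes, 1 gene per line, with distance from the start in bases on the x axis. CCAAT boxes recur in 16 of the genes, while the single SRE match belongs to SREBF2.

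Across the pathway the difference between groups was small. Of the 32 genes, 31 passed the filter on low counts, and their log2 fold changes (Sh-ZNF469 against Control) ran from −0.21 for SREBF1 to 0.32 for ABCA1. SCD, the desaturase that makes monounsaturated fatty acids, fell, and no other gene of the 31 passed an adjusted p of 0.05 in either direction. Thus 0 were called higher, against 0.400% of all 13991 features tested, and 1 was called lower, against 0.715%, by edgeR's quasi-likelihood test, adjusted over all features by the Benjamini-Hochberg method. DESeq2 called 2 higher (ABCA1 and MSMO1) and 1 lower (SCD), beside 260 higher and 267 lower of the 13991 features. By limma-voom 0 and 1 were called, beside 56 higher and 98 lower of all features. At an unadjusted p under 0.05, which 15.0% of all features met, ABCA1, MSMO1, ELOVL6 and IDI1 were above 0 and SCD, SREBF1 and ACAT2 below. Control and Sh-ZNF469 libraries did not overlap for 9 genes, or 29.0% of the 31, against 20.3% of all features.

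The fold changes lay on both sides of 0, at 16 genes above and 15 below. Their median was 0.0214, beside −0.0019 for all features tested, and the median of their absolute values was 0.0698, beside 0.0847. The precision was higher than over all features, with a median SE of 0.0564 against 0.0761. The 95% interval of the log2 fold change lay within ±0.25 for 20 of the 31 genes and within ±0.5 for 30, where all features gave 46.9% and 75.5%. EBP was the exception at ±0.5. Differences of a few percent could not be resolved at this spread between libraries.

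**Figure D2:**
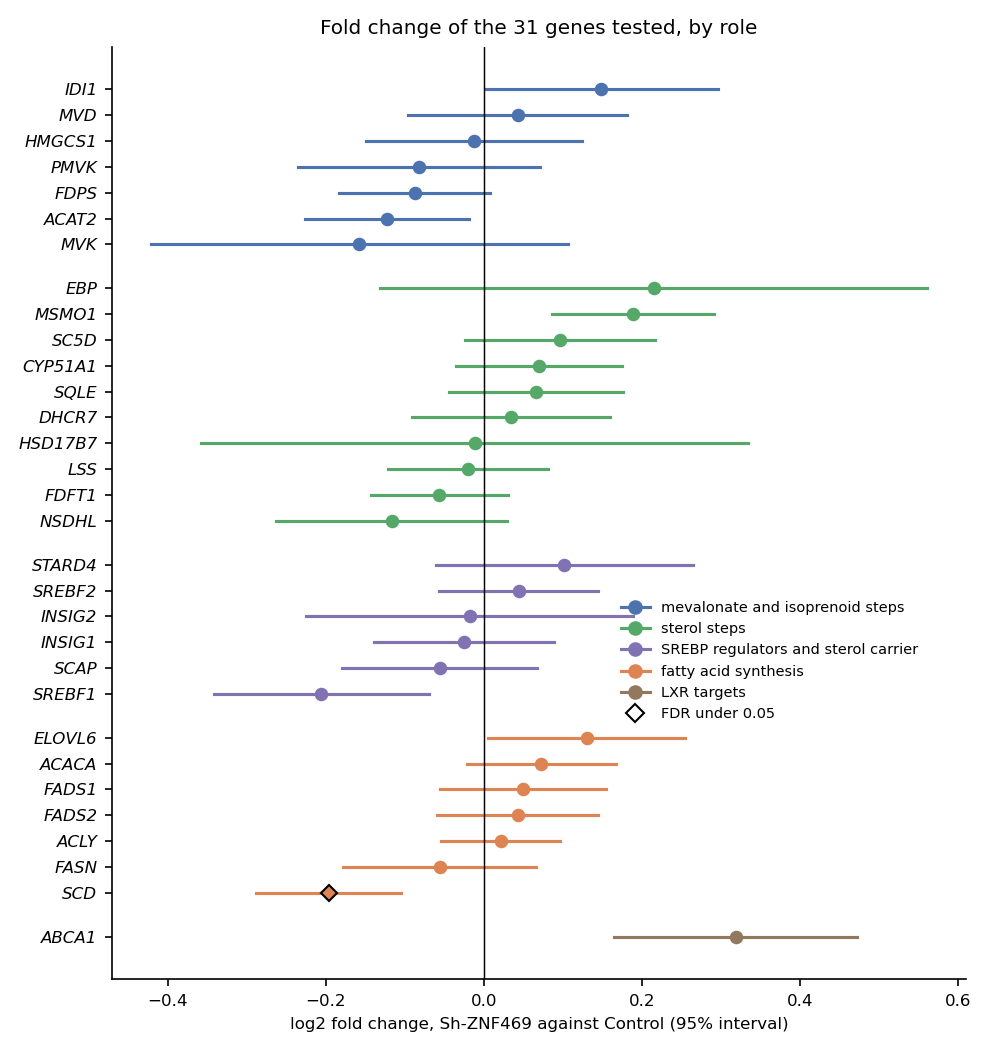
Log2 fold change of the 31 genes tested, Sh-ZNF469 against Control, with 95% intervals, by role. Points lie on both sides of 0 in each group of more than 1 gene, and SCD (outlined diamond) is the gene with an adjusted p under 0.05.

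**Figure D3:**
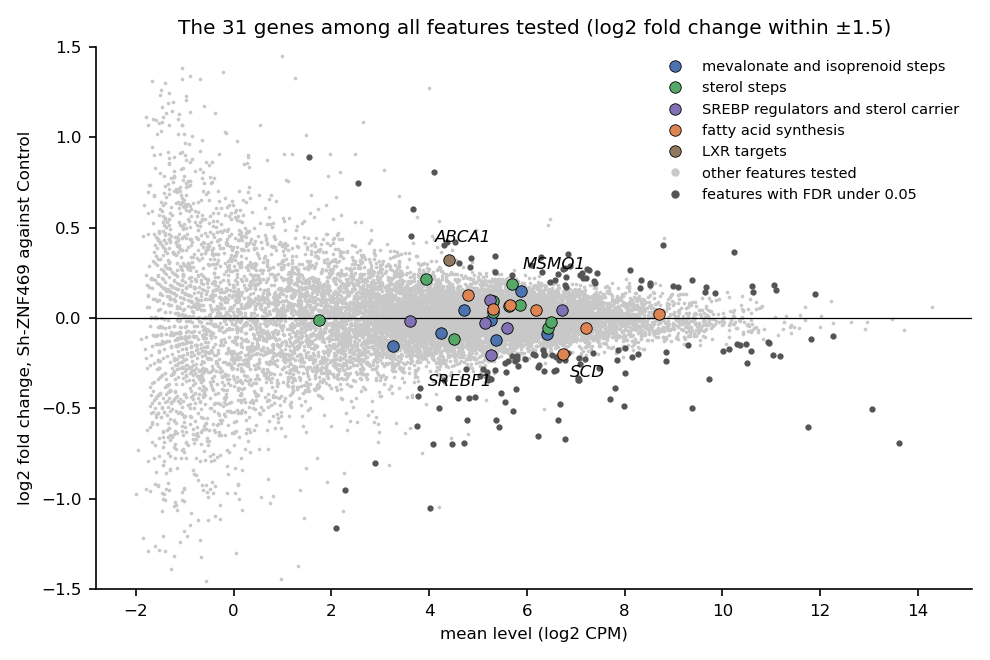
Log2 fold change against mean level (log2 CPM) for all features tested, with the 31 genes coloured by role and features with an adjusted p under 0.05 in dark grey. The genes of the pathway sit in the middle of the cloud, between −0.21 and 0.32.

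In the mevalonate and isoprenoid steps, no gene of 7 passed the adjusted threshold. The median log2 fold change was −0.08, with 2 genes above 0 and 5 below. ACAT2, the cytosolic thiolase that joins acetyl-CoA units, was at 42.3, 42.7 and 44.4 CPM in Control and 39.7, 39.1 and 40.1 CPM in Sh-ZNF469 libraries. All Sh-ZNF469 libraries were below all Control libraries, with a log2 fold change of −0.12 (SE 0.0478, unadjusted p = 0.0238, edgeR adjusted p = 0.247). In the annotation 36.3% of its exons lie opposite those of neighbours such as TCP1 and SOD2, whose reads cannot be separated without strand, and strand use in the counting is not given in the sources used here. The same holds for 46.7% of the exons of HMGCS1, opposite ENSG00000261604, and 41.4% of those of FDPS, opposite RUSC1-AS1.

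HMGCS1, which makes HMG-CoA and is a classical SREBP-2 target, was at 36.2, 41.3 and 37.6 CPM in Control and 35.7, 38.2 and 40.2 CPM in Sh-ZNF469 libraries. The groups overlapped, with a log2 fold change of −0.01 and a 95% interval from −0.15 to 0.13. IDI1, the isomerase that readies isoprenoid units for chain growth, was at 59.9, 58.7 and 50.03 CPM in Control and 59.3, 67.1 and 60.5 CPM in Sh-ZNF469 libraries. Its groups overlapped, and Control replicate 3 stood lowest of the 6 libraries (log2 fold change 0.15, SE 0.0682, unadjusted p = 0.0484, edgeR adjusted p = 0.329). Without Control replicate 3 the value was 0.07. The other 4 enzymes had log2 fold changes of −0.16 for the mevalonate kinase MVK, −0.08 for the phosphomevalonate kinase PMVK, 0.04 for the decarboxylase MVD and −0.09 for FDPS, which makes farnesyl diphosphate. FDPS and IDI1 have 8 and 3 annotated pseudogene copies with which reads may be shared.

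Of the 10 sterol enzymes 0 were called, and MSMO1 had the smallest p-value. This oxidase starts the removal of methyl groups that remain on the sterol ring after the demethylase CYP51A1 has acted. MSMO1 was at 49.3, 48.2 and 48.6 CPM in Control and 54.0, 58.3 and 54.2 CPM in Sh-ZNF469 libraries. The groups did not overlap and the Control libraries lay close together, with Sh-ZNF469 replicate 2 highest. The level was 114% of Control (95% interval 106% to 122%, log2 fold change 0.19, SE 0.0472), with an unadjusted p of 0.00153 and an adjusted p of 0.0807 by edgeR. Only DESeq2 among 15 alternatives called it (adjusted p = 0.0239), and without Sh-ZNF469 replicate 2 its log2 fold change was 0.15 (edgeR adjusted p = 0.239). No annotated gene overlaps its exons, and no annotated pseudogene copy is named after it.

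NSDHL and HSD17B7, which act with MSMO1 in the same demethylation, had log2 fold changes of −0.12 and −0.01 (edgeR adjusted p = 0.448 and 0.983). CYP51A1, the demethylase that acts before MSMO1, was at 0.07, but 90.1% of its exons overlap those of ENSG00000285772 and ENSG00000289027 on the same strand. CYP51A1 and HSD17B7 have 3 and 2 annotated pseudogene copies. SQLE, the squalene epoxidase and a rate-limiting step, was at 47.7, 49.6 and 47.7 CPM in Control and 50.6, 53.3 and 47.8 CPM in Sh-ZNF469 libraries, and its log2 fold change of 0.07 had a 95% interval from −0.04 to 0.18. Every Sh-ZNF469 library was above Control replicates 1 and 3, and replicate 3 was below Control replicate 2. FDFT1, the squalene synthase, did not overlap between groups, with a fold change of only −0.06 on the log2 scale (edgeR adjusted p = 0.548). The cyclase LSS was at −0.02, SC5D at 0.10 and DHCR7, the last reductase of one branch, at 0.03, with overlapping groups in each.

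EBP, the sterol isomerase, had with HSD17B7 the widest interval of the 31 genes (log2 fold change 0.22, 95% interval −0.13 to 0.56). It had 317, 561 and 585 counts in Control and 589, 571 and 589 counts in Sh-ZNF469 libraries, so Control replicate 1 alone was low. The deposited FPKM values went the other way in that library, at 12.3 against 8.14 and 8.42 in the other Control libraries and 8.65, 8.88 and 8.67 in Sh-ZNF469 libraries. Without Control replicate 1 the log2 fold change was −0.0055. In the annotation 57.1% of EBP's exons overlap those of ENSG00000286268 on the same strand, and the part of that overlap in the disagreement was not tested.

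Among the regulators SREBF1 and SREBF2 had fold changes of opposite sign. SREBF1 was at 43.9, 42.4 and 37.4 CPM in Control and 35.9, 34.6 and 36.7 CPM in Sh-ZNF469 libraries. No libraries overlapped, but Control replicate 3 lay within 1 CPM of Sh-ZNF469 replicate 3. The level was 86.7% of Control (95% interval 78.9% to 95.3%, log2 fold change −0.21, SE 0.0630), with an unadjusted p of 0.00622 and an adjusted p of 0.150 by edgeR. It passed the adjusted threshold in none of 15 alternatives, which gave 0.0700 to 0.361. The table gives 1 count per gene, so the isoforms SREBP-1a and SREBP-1c are not told apart.

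SREBF2 was at 106, 99.6 and 104 CPM in Control and 109, 101 and 110 CPM in Sh-ZNF469 libraries. Its groups overlapped, with a log2 fold change of 0.04 and a 95% interval from −0.06 to 0.14. SCAP, the escort, was at 46.9, 48.2 and 53.3 CPM in Control and 47.3, 45.7 and 49.7 CPM in Sh-ZNF469 libraries (log2 fold change −0.06). INSIG1, a retention factor that is itself an SREBP target and a sensitive readout of the pathway, was at 33.8, 36.3 and 36.7 CPM in Control and 34.6, 35.2 and 35.1 CPM in Sh-ZNF469 libraries. All 3 Sh-ZNF469 values lay inside the Control range, and the 95% interval of the log2 fold change ran from −0.14 to 0.09. Its relative INSIG2 was at 12.2, 12.6 and 11.7 CPM in Control and 11.2, 11.6 and 13.2 CPM in Sh-ZNF469 libraries (log2 fold change −0.02). STARD4, which carries sterols between membranes, had a log2 fold change of 0.10 with overlapping groups, and like IDI1 it was lowest in Control replicate 3, at 32.1 CPM.

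Fatty acid synthesis held the one gene called. SCD was at 113, 113 and 116 CPM in Control replicates 1, 2 and 3 and at 97.6, 104 and 96.3 CPM in Sh-ZNF469 replicates 1, 2 and 3. Every Sh-ZNF469 library was below every Control library, with Sh-ZNF469 replicate 2 nearest to them (exact permutation test, two-sided, p = 0.1, the lowest possible for 3 libraries against 3). SCD fell to 87.3% of Control (95% interval 81.9% to 93.0%, log2 fold change −0.20, SE 0.0426, unadjusted p = 0.000497, edgeR adjusted p = 0.0474). In bulk RNA a lower level per cell and fewer cells with a high level cannot be told apart. SCD has 1 annotated pseudogene copy with which reads may be shared, and no annotated gene overlaps its exons. The call was close to the threshold. It was lost with RLE scaling (adjusted p = 0.0511), with scaling by library size alone (0.0769) and in 5 of the 6 edgeR fits that left out 1 library (up to 0.199), and it held without Sh-ZNF469 replicate 2 (log2 fold change −0.23, adjusted p = 0.0202).

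The other fatty acid enzymes lay on both sides of 0, with FASN below it like SCD. ELOVL6, which lengthens palmitate before SCD acts on the product, was at 25.8, 27.01 and 26.2 CPM in Control and 29.5, 29.2 and 27.7 CPM in Sh-ZNF469 libraries. Its groups did not overlap, with a log2 fold change of 0.13 (SE 0.0577, unadjusted p = 0.0421, edgeR adjusted p = 0.311). FASN, the synthase that makes palmitate, was at 153, 137 and 160 CPM in Control and 144, 137 and 152 CPM in Sh-ZNF469 libraries. Replicate 2 was lowest in each group, the groups overlapped, and the log2 fold change of −0.06 had a 95% interval from −0.18 to 0.07. ACACA, the acetyl-CoA carboxylase, was at 49.1, 49.4 and 49.3 CPM in Control, and its Sh-ZNF469 libraries lay just above at 50.7 to 52.8 CPM (log2 fold change 0.07, edgeR adjusted p = 0.466). FADS1, a desaturase of polyunsaturated fatty acids, did not overlap between groups either, with a log2 fold change of 0.05, while its relative FADS2 overlapped at 0.04. ACLY, which supplies cytosolic acetyl-CoA, was at 0.02 with a 95% interval from −0.05 to 0.10, the narrowest of the 31.

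Of the LXR targets, ABCA1 had the largest fold change of the 31 genes. ABCA1, which loads cholesterol onto lipid-poor apolipoproteins, was at 18.5, 20.2 and 17.8 CPM in Control and 23.4, 24.5 and 22.6 CPM in Sh-ZNF469 libraries. The lowest Sh-ZNF469 library was above the highest Control library by more than the range within either group. The level was 125% of Control (95% interval 112% to 139%, log2 fold change 0.32, SE 0.0711), with an unadjusted p of 0.000626 and an adjusted p of 0.0534 by edgeR, just outside the threshold. It passed in 5 of 15 alternatives, DESeq2 among them (adjusted p = 0.00797), and in none of the 6 fits that left out 1 library (0.0596 to 0.196), all of which kept a log2 fold change of 0.28 or more. ABCA1 exons overlap no annotated gene.

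ABCG1, which passes cholesterol to lipoprotein particles and is induced with ABCA1 in macrophages, was not measurable here. It had 0, 2 and 0 counts in Control and 0, 4 and 6 counts in Sh-ZNF469 libraries and was removed by the filter, so no fold change is given. SREBF1 and SCD, which LXRs can also raise, were below Control while ABCA1 was above it. These contrasts between genes were not tested against each other.

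**Figure D4:**
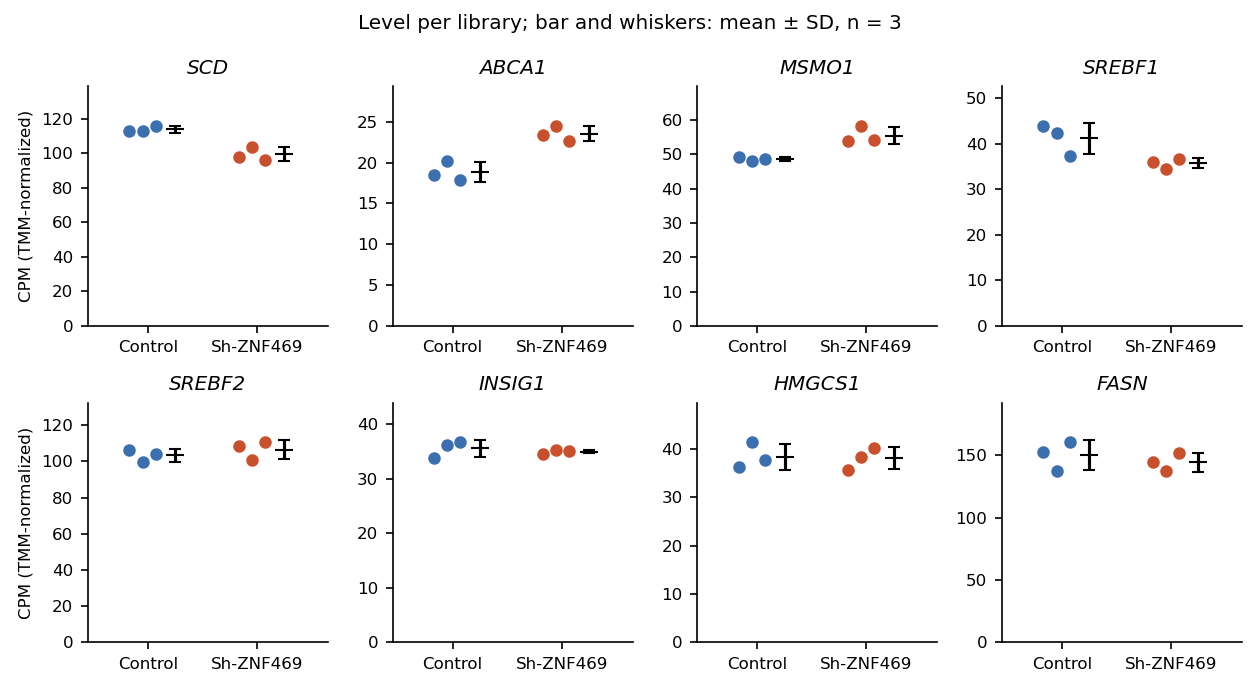
Level per library in CPM for 8 genes, with points for single libraries and bars with whiskers for mean ± SD (n = 3 per group). Control and Sh-ZNF469 points are separate for SCD, ABCA1, MSMO1 and SREBF1 and mixed for SREBF2, INSIG1, HMGCS1 and FASN.

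Levels can be compared between genes only per transcript length, as in the FPKM values deposited by the authors. In Control cells ACLY was highest at 87.4 ± 2.43 FPKM (SD, n = 3), followed by FDPS at 63.8 ± 2.28 FPKM and FDFT1 at 39.1 ± 0.860 FPKM. A run of genes from IDI1 (21.5 ± 2.26 FPKM) through MSMO1, FADS2 and SCD to SREBF2 (17.8 ± 0.612 FPKM) came next, in which IDI1, MSMO1 and FADS2 did not differ beyond their SDs. SREBF2 was thus above SREBF1, at 9.45 ± 0.794 FPKM. ABCA1 was the lowest of the 31 genes, at 1.62 ± 0.119 FPKM in Control and 2.08 ± 0.117 FPKM in Sh-ZNF469 libraries.

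The FPKM values were also summed over each role. The mevalonate steps came to 139 ± 2.21 FPKM in Control and 138 ± 1.15 FPKM in Sh-ZNF469 libraries, the sterol steps to 158 ± 3.99 and 162 ± 3.70 FPKM, and the regulators with STARD4 to 61.5 ± 1.19 and 62.3 ± 1.24 FPKM. Fatty acid synthesis came to 159 ± 3.82 and 163 ± 1.69 FPKM. The mevalonate and regulator sums differed by less than the larger SD of the pair, and the sterol and fatty acid sums by slightly more. The sterol sum was 163, 156 and 155 FPKM in Control replicates 1, 2 and 3. The value of replicate 1 includes the EBP level of 12.3 FPKM that its counts did not share, which raises both the Control mean and its SD. Sums without EBP were not formed. The LXR targets, nearly all ABCA1, came to 1.62 ± 0.125 FPKM in Control and 2.11 ± 0.118 FPKM in Sh-ZNF469 libraries, a difference of more than both SDs together. SCD itself went from 19.1 ± 0.0972 FPKM in Control to 17.1 ± 0.849 FPKM in Sh-ZNF469 libraries, while the sum of its role was not lower. No TMM adjustment was applied to the FPKM values here, and scaling by library size alone moved the median log2 fold change of all features from −0.0019 to 0.0188. HMGCS1, for example, was at 9.93 FPKM in Control and 10.1 FPKM in Sh-ZNF469 libraries, but at 38.4 and 38.0 CPM. The part of scaling in the small differences between sums was not tested. These sums are weighted to the most abundant genes. ACLY alone held 87.4 of the 159 FPKM of that role in Control and 90.8 of the 163 FPKM in Sh-ZNF469 libraries.

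**Figure D5:**
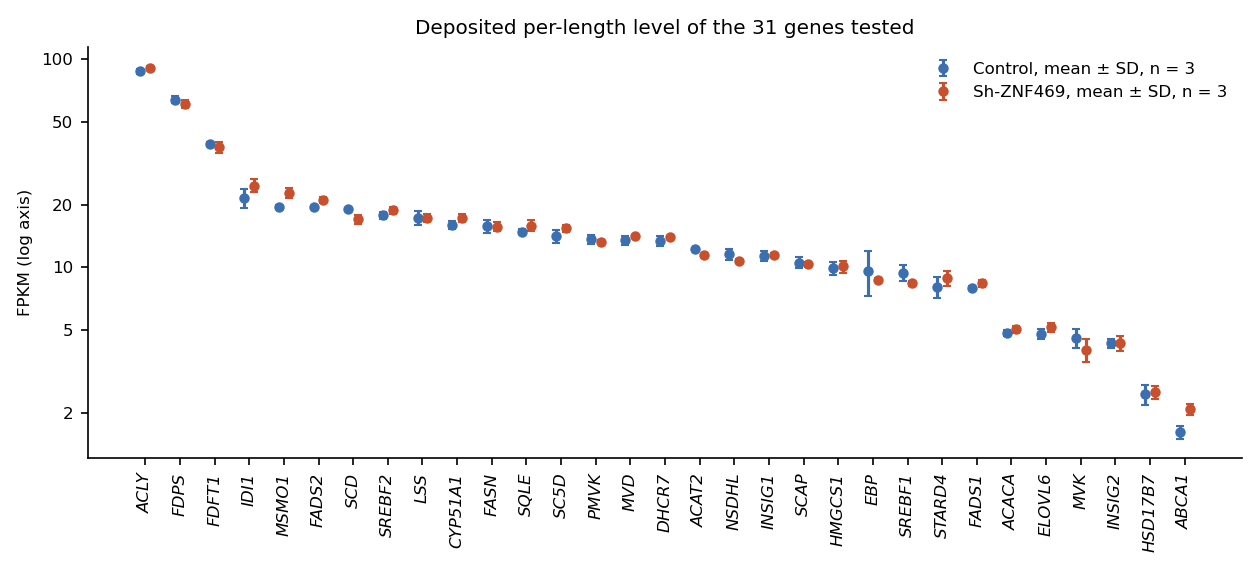
Deposited level per transcript length (FPKM, log axis) of the 31 genes tested, as mean ± SD of 3 libraries per group, ordered by the Control mean. ACLY and FDPS lead, ABCA1 is last, and the groups differ by little at any gene relative to the range between genes.

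Further genes of the pathway were taken from a separate list of 57, of which 55 were tested. No gene of this list was called by edgeR in either direction. At an unadjusted p under 0.05, which 15.0% of all features met, 4 of the 55 were above 0 and 2 below. DESeq2 called 1, ERLIN2, beside 260 higher and 267 lower of all features. The fold changes were above 0 for 32 genes and below for 23, with a median of 0.00998 beside −0.0019 for all features. The groups did not overlap for 7 genes, or 12.7% of the 55, against 20.3% of all features, so neither share was above that of all features. IDI2 had 0 counts in every library and CH25H, which makes an oxysterol, had at most 6.

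Among 9 genes that process or degrade SREBPs and their partners, ERLIN2, which helps to retain SREBP in the endoplasmic reticulum, was at 74.4, 76.7 and 70.8 CPM in Control and 81.8, 82.1 and 82.1 CPM in Sh-ZNF469 libraries. These groups did not overlap (log2 fold change 0.15, SE 0.0431, edgeR adjusted p = 0.131). PAQR3, which tethers SCAP to the Golgi, was at 0.25 (SE 0.0927, edgeR adjusted p = 0.221), with Control libraries spread from 27.6 to 38.3 CPM. It was called only without Control replicate 2 (log2 fold change 0.39, edgeR adjusted p = 0.0403).

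Of 10 genes of the LXR axis, 2 had an unadjusted p under 0.05, beside 15.0% of all features, and 0 were called. RXRA, the partner of LXR on DNA, was at 25.4, 23.9 and 26.1 CPM in Control and 23.2, 20.3 and 21.8 CPM in Sh-ZNF469 libraries (log2 fold change −0.21, SE 0.0701, edgeR adjusted p = 0.188). NR1H3, which encodes LXRα, was at 2.60, 2.87 and 2.29 CPM in Control and 1.99, 1.92 and 1.96 CPM in Sh-ZNF469 libraries (log2 fold change −0.40, SE 0.185, edgeR adjusted p = 0.330). Neither overlapped between groups, as for 20.3% of all features, and both were below Control. NR1H2, which encodes LXRβ, was more abundant at 52.4 to 60.6 CPM in Control, and its log2 fold change was −0.03.

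Fatty acid breakdown was included as a contrast to synthesis. Of its 14 genes 0 were called and 10 were above 0, with a median log2 fold change of 0.07, beside 6904 of the 13991 features above 0 and a median of −0.0019. HADHB, a subunit of the mitochondrial trifunctional protein, was at 0.10 (SE 0.0384, edgeR adjusted p = 0.234), and DECR1, a reductase for unsaturated fatty acids, was at 0.12 (SE 0.0447, edgeR adjusted p = 0.236). In both the Sh-ZNF469 libraries were above all Control libraries. Among 12 other sterol and isoprenoid genes the smallest p-values belonged to SOAT1, which esterifies cholesterol (log2 fold change 0.08), and NUS1 of dolichol synthesis (0.11), and among 12 other SREBP targets to the citrate carrier SLC25A1 (−0.07) and the carboxylase ACACB (0.24), and all 4 overlapped between groups.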

How the data were processed

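The authors prepared poly(A)-selected libraries (NEBNext Ultra II RNA), sequenced read pairs of 150 bp and, per the labels and the methods of the study, used HISAT2 and StringTie on GRCh38. Tool versions, annotation release, counting step and strand setting are not given in the sources used here. The deposited counts are whole numbers per gene and library without normalization. The FPKM values, scaled by the authors to length and depth, were only averaged and summed, without TMM. Columns of the authors' comparison were not used. Of 23754 features, 3780 are unannotated loci, and 17 stray lines were dropped.

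Fold changes used edgeR 4.0.16 in R 4.3.3, with filterByExpr (minimum count 10), TMM and the quasi-likelihood test with no covariate, and p-values were adjusted by Benjamini-Hochberg over 13991 features (FDR under 0.05). The SE is the absolute log2 fold change over the square root of F. Alternatives were 2 other filters, 3 scalings, DESeq2 1.42.0, limma-voom (limma 3.58.1), the replicate number as a block, removal of a length trend (lowess span 0.3, 12771 features), each library left out, and other thresholds. Tested on simulated data, the fit recovered 43.3% of genes changed by 0.3, 92.5% by 0.6 and 100% by 1 on the log2 scale, among 14008 tested, and 6.55% of calls were false. The simulation gave all genes 1 common dispersion and changed no gene with a low mean count. Recovery of changes smaller than 0.3 was not simulated.

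Library values are printed for genes with an unadjusted p under 0.05, for the regulators and for 6 genes standing for the roles; EBP, ACACA, STARD4 and NR1H2 were added after their values were seen. Of the list of 57 genes, the 2 smallest p-values of each sublist are named, and HADHB and DECR1 are among these. The genes, the lists and the markers were chosen with earlier results of these data known. Some genes of the pathway are not reported here, although they entered every test. Gene positions and overlaps are from GENCODE 44 on GRCh38, which may differ from the release the authors used, and promoter sequences from RefSeq on GRCh38.p14. Pseudogene copies were counted by gene name only, so copies under other names were missed.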

Additional observations from a re-analysis of the deposited data

How the results depend on the processing

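Genes of the pathway called higher numbered 0 in the reported fit, 1 with no filter, with CPM over 1 in 3 libraries, with library size scaling and with the replicate block, 2 by DESeq2 and 4 at an unadjusted p under 0.05. Those called lower numbered 1, and 0 with library size scaling, RLE scaling, an FDR under 0.01 or an absolute log2 fold change over 1, and 3 at an unadjusted p. Leaving out each library gave 0 to 0 higher and 0 to 1 lower. The list of 57 genes had 0 calls, with 1 higher by DESeq2, 4 higher and 2 lower at an unadjusted p, and 0 to 1 higher with a library left out. All features gave 56 higher and 100 lower, against 127 and 163 with no filter, 260 and 267 by DESeq2, 135 and 157 with the replicate block, 19 and 54 at an FDR under 0.01, 1023 and 1076 at an unadjusted p, and 2 and 4 with a fold criterion. Library size scaling gave 88 higher and 77 lower, and the fits without 1 library 20 to 69 and 54 to 92. The median of the 31 genes, 0.0214, became 0.0421 with library size scaling, which moved the median of all features to 0.0188, and lay between −0.0020 and 0.0274 without 1 library, the lowest without Control replicate 1. The causes were not tested, and the last of these fits also had fewer libraries.

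Signs turned for EBP, at 0.22 in the reported fit, and for 8 genes nearer 0. Library size scaling gave 0.0083 for HMGCS1, 0.0006 for LSS, 0.0093 for HSD17B7 and 0.0025 for INSIG2, and removal of the length trend 0.0313 for HSD17B7. Leaving out 1 library gave ranges of −0.0539 to 0.0454 for HMGCS1, −0.0020 to 0.0821 for MVD, −0.0438 to 0.0172 for LSS, −0.1004 to 0.0559 for HSD17B7, −0.0055 to 0.3636 for EBP, −0.0144 to 0.0898 for DHCR7, −0.0918 to 0.0011 for SCAP, −0.0894 to 0.0274 for INSIG2 and −0.0036 to 0.0426 for ACLY. SCD, SREBF1 and ACAT2 stayed below 0 and ABCA1, MSMO1, ELOVL6 and IDI1 above 0 in all 15 alternatives. Between same-numbered libraries of the groups, the correlations of deviations were −0.0241, −0.0352 and 0.0363 for replicates 1, 2 and 3. Pairs with unlike numbers gave −0.0329 to 0.0583. With so few libraries these values cannot show whether same-numbered libraries shared a culture or preparation. The replicate block added ABCA1 (adjusted p = 0.0375) to the genes called and changed no other call among the 32. At this depth of 34057675 to 36120260 counts per library, low counts limit the precision for ABCG1 and HSD17B7. In the list of 57 genes they do so for TM7SF2, ACACB, CYP27A1, NR1H3 and MYLIP, and IDI2 and CH25H could not be tested.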

Other observations

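Ratios of counts within a library do not depend on the scaling, and a few were formed after the values were seen, so they carry no test. The ratio of ABCA1 to SCD counts was 0.164, 0.180 and 0.154 in Control replicates 1, 2 and 3 and 0.240, 0.236 and 0.235 in Sh-ZNF469 replicates 1, 2 and 3. The ratio of ABCA1 to SREBF1 was 0.422, 0.477 and 0.477 in Control and 0.652, 0.709 and 0.617 in Sh-ZNF469 libraries. In both ratios the groups are apart by more than their own ranges. That they do not overlap was fixed by the choice of genes. ABCA1 was higher, and SCD and SREBF1 lower, in every Sh-ZNF469 library than in every Control library. The ratio of SREBF1 to SREBF2 was 0.413, 0.426 and 0.358 in Control and 0.331, 0.343 and 0.333 in Sh-ZNF469 libraries, where Control replicate 3 lies near the Sh-ZNF469 values. Of 2 sterol enzymes, the ratio of MSMO1 to FDFT1 was 0.569, 0.538 and 0.560 in Control and 0.645, 0.700 and 0.630 in Sh-ZNF469 libraries. Here too the separation was fixed by the choice, as neither gene overlapped between groups and their signs were opposite. The ratio of SCD to SREBF1 was 2.57, 2.66 and 3.10 in Control and 2.72, 3.00 and 2.62 in Sh-ZNF469 libraries, with mixed groups, and the ratio of SCD to FASN, 0.738, 0.821 and 0.723 in Control and 0.676, 0.759 and 0.634 in Sh-ZNF469 libraries, was mixed as well.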
